A study of Mus musculus with 12 samples.

Results

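The rod phototransduction activation cascade was followed through 9 genes: Gnat1, Gnb1 and Gngt1 (the 3 subunits of rod transducin), Pde6a, Pde6b and Pde6g (the subunits of the rod phosphodiesterase), Cnga1 and Cngb1 (the rod cyclic nucleotide-gated channel) and Sag (rod arrestin). Members were the rows of the gene table whose Ensembl identifier carries one of these symbols, 9 of 53707 rows, and all 9 were among the 21061 genes that passed the filter on low counts. The tissue was retina of wild-type C57BL/6J mice aged 28 days, dissected free of pigment epithelium and sclera and kept as explants for 48 hours in Neurobasal-A medium with B27 and N2 supplements. One group received 5 mM and the other 25 mM glucose, the study's low and high glucose conditions. The labels' protocol adds 1 hour in Krebs' Ringers solution for both groups, though whether the retinas taken for RNA went through it is not clear from the sources. The comparison asks whether the glucose supply changes retinal gene expression. Each group held 3 biological replicates, and each replicate was sequenced as 2 technical libraries, 1 in each of 2 batches, giving 12 libraries. Explants have no blood supply or pigment epithelium, and all mice were of a single strain and age, which limits them as a model of the retina in the animal. The sources do not say at which step the technical libraries were separated or whether a replicate was a separate animal, so p-values measure only the spread between these samples.

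In a rod, the light-activated receptor exchanges GDP for GTP on the transducin alpha subunit, which then leaves its beta and gamma partners. The freed alpha subunit takes the inhibitory gamma subunits off the phosphodiesterase, whose catalytic alpha and beta subunits then hydrolyse cyclic GMP. As cyclic GMP falls, the channel in the outer segment membrane closes and the rod hyperpolarises. Arrestin caps the phosphorylated receptor and ends its signal. In the retina most of these proteins belong to rods, whereas the beta subunit encoded by Gnb1 is used by many cells. Mutations in several of the genes cause night blindness or retinitis pigmentosa.

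Each of the 9 genes had a higher mean at 25 mM than at 5 mM glucose, and 3 of them, Cnga1, Pde6b and Pde6a, passed edgeR's quasi-likelihood test at a Benjamini-Hochberg false discovery rate (FDR) under 0.05. Of all genes tested, 1.98% passed that threshold in either direction and 1.47% passed it as higher at 25 mM. The median log2 fold change was 1.06 over the 9 members and -0.01 over all genes. No member passed the stricter threshold of FDR under 0.01 with a fold change over 2, and 0% of all genes did in this fit, although DESeq2 placed 1387 genes and 5 members past it. At an unadjusted p under 0.05 the quasi-likelihood test listed 6 members and 6052 genes, 28.7% of those tested. The 3 replicates at 25 mM all lay above the 3 at 5 mM in 6 of the 9 members, against 16% of all genes.

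**Figure D1:**
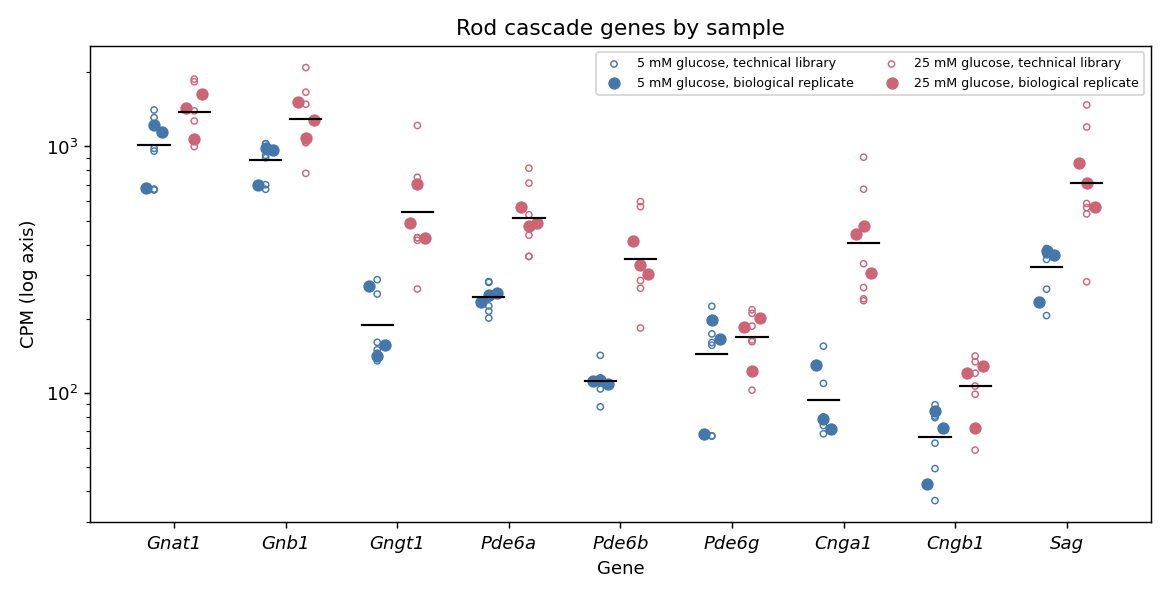
Counts scaled to library size (CPM, log axis) of the 9 cascade genes at 5 mM (blue) and 25 mM glucose (red). Large points are the 3 biological replicates per group, bars their means and small open circles the 6 technical libraries; the groups of replicates do not overlap for Gnb1, Gngt1, Pde6a, Pde6b, Cnga1 and Sag, and the spread between open circles is wider at 25 mM.

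Depth and the state of the libraries set how firmly these values can be read. Libraries held 17998905 to 36692484 counts at 5 mM and 14815285 to 23129541 at 25 mM, and a member had 2359 to 72519 counts per replicate, so counting error was small beside the spread between samples. The 2 technical libraries of 25 mM replicates 1 and 2 stood far apart. In replicate 2 the first library was above the second for every member, by a median of 2.13-fold and by up to 5.22-fold for Sag. In replicate 1 the second library was the higher one, by a median of 2.02-fold and by up to 2.84-fold for Gngt1. In the other 4 replicates the median distance between technical libraries was 1.11-fold to 1.21-fold. With the higher library of each of those 2 replicates left out, a setting chosen after seeing the data, all 9 members kept a positive fold change but 0 genes in the table passed FDR under 0.05 (edgeR), while 3995 genes and 4 members had an unadjusted p under 0.05. In that setting Cnga1 had a log2 fold change of 1.50 (FDR 0.128, edgeR), Pde6b 1.22 (0.128) and Pde6a 0.72 (0.149). Bulk RNA of retina cannot tell fewer cells of a type from less RNA per cell, and this holds for every value here.

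In GRCm38, Cnga1 (ENSMUSG00000067220) spans chr5:72603696-72644275 on the minus strand and Pde6b (ENSMUSG00000029491) chr5:108388391-108432397 on the plus strand. Gngt1 (ENSMUSG00000029663) spans chr6:3993792-3997436 and Sag (ENSMUSG00000056055) chr1:87803680-87845158, both on the plus strand. No exon of a member overlaps an exon of another annotated gene.

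The 3 transducin subunits had fold changes of unlike size, although the ratios of Gnb1 and Gngt1 to Gnat1 overlapped between the groups. Values are counts scaled to library size (CPM). Gnat1, the GTP-binding alpha subunit, was read at 679, 1218 and 1145 CPM in 5 mM replicates 1, 2 and 3 and at 1438, 1074 and 1640 CPM in the 25 mM replicates. The groups overlapped, with 5 mM replicate 1 lowest and 25 mM replicate 2 below both remaining 5 mM replicates, and the log2 fold change was 0.45 ± 0.28 (SE; FDR 0.308, edgeR). Gnb1, the beta subunit, had 698, 986 and 966 CPM at 5 mM and 1517, 1081 and 1286 CPM at 25 mM. Its groups stood apart, but by little: the fold change of 0.55 ± 0.22 on the log2 scale did not pass (FDR 0.154, edgeR). Gngt1, the gamma subunit that helps hold the complex on the membrane, had the largest fold change of the 3. Its values were 271, 142 and 156 CPM at 5 mM and 491, 704 and 425 CPM at 25 mM. The 25 mM replicates all lay above the 5 mM group, although single libraries overlapped (264 CPM in the lowest at 25 mM, 288 CPM in the highest at 5 mM), and the log2 fold change of 1.51 ± 0.30 lay just outside the threshold (FDR 0.0504, edgeR).

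The phosphodiesterase held 2 of the 3 genes that passed, and both encode catalytic subunits. Pde6b, the beta subunit, had the narrowest 5 mM group of the cascade, at 112, 113 and 109 CPM. In the 25 mM replicates it reached 415, 330 and 303 CPM, a log2 fold change of 1.65 ± 0.18 (SE; FDR 0.0217, edgeR). Pde6a, the alpha subunit, was read at 234, 249 and 254 CPM at 5 mM and at 570, 478 and 489 CPM at 25 mM. This was a log2 fold change of 1.06 ± 0.16 (FDR 0.0325, edgeR). Both catalytic genes were also separate over the single libraries: the lowest 25 mM library had 184 CPM of Pde6b and 358 CPM of Pde6a, above the highest 5 mM libraries at 142 and 283 CPM. Pde6g, which encodes the inhibitory gamma subunit, showed no such separation, with 68.0, 198 and 166 CPM at 5 mM and 185, 123 and 201 CPM at 25 mM. Its log2 fold change of 0.24 ± 0.37 (FDR 0.693, edgeR) was smaller than its error, and it became -0.10 without 5 mM replicate 1, the lowest of the 6 samples.

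The channel gave the largest fold change of the cascade. Cnga1, the subunit that forms the pore and binds cyclic GMP, had 130, 78.7 and 71.4 CPM at 5 mM and 441, 474 and 306 CPM at 25 mM. The mean went from 93.5 ± 32.2 to 407 ± 89.3 CPM (SD, n = 3), a log2 fold change of 2.12 ± 0.29 (SE; FDR 0.0261, edgeR), and the 12 libraries did not overlap. Its partner Cngb1, the modulatory subunit, had 42.6, 84.4 and 72.4 CPM at 5 mM and 121, 71.9 and 128 CPM at 25 mM. Here 25 mM replicate 2 fell within the 5 mM group, and the log2 fold change of 0.69 ± 0.30 did not pass (FDR 0.178, edgeR). Sag, which ends the signal that the cascade carries, had 234, 378 and 363 CPM at 5 mM against 856, 709 and 566 CPM at 25 mM. Every 25 mM replicate was above the 5 mM group, yet the log2 fold change of 1.13 ± 0.25 narrowly missed the threshold (FDR 0.0581, edgeR). Between single libraries Sag overlapped, since the second library of 25 mM replicate 2 held 283 CPM.

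**Figure D2:**
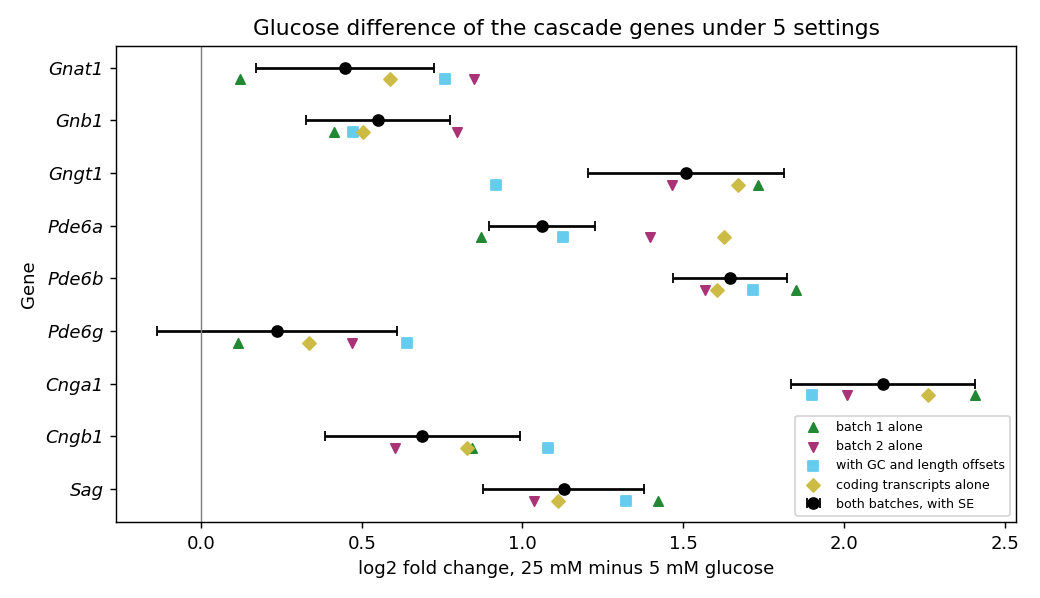
Log2 fold change (25 mM minus 5 mM glucose) of the 9 cascade genes. Black points with SE bars use both batches, triangles 1 batch alone, squares the fit with GC and length offsets and diamonds coding transcripts alone; all points lie above 0, and Cnga1 leads in each setting.

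The batches gave fold changes in the same direction for all 9 members. The median over the members, on the log2 scale, was 0.87 for batch 1 and 1.04 for batch 2. Cnga1 had 2.41 in batch 1 and 2.01 in batch 2, Pde6b 1.85 and 1.57, and Pde6a 0.87 and 1.40. Gnat1 had 0.12 and 0.85, the widest gap between batches. A batch by glucose interaction in edgeR took the 12 libraries as separate samples and did not pair the 2 libraries of a replicate. It found 0 members at an unadjusted p under 0.05. Of 18725 genes, 0 passed FDR under 0.05 and 2206 (11.8%) had an unadjusted p under 0.05. Because the pairing was left out, these counts cannot show that the batches gave the same fold change. Within batch 1 alone 3279 genes passed FDR under 0.05 in edgeR, with 2 members among them, Pde6b and Cnga1. Within batch 2 alone 0 genes passed FDR under 0.05 in edgeR, while 2203 genes and 5 members had an unadjusted p under 0.05. Single replicates also decided the calls in edgeR. Leaving out the first replicate at 5 mM gave 5 called members and 5845 called genes. Leaving out replicates 2 or 3 at 5 mM, or replicates 1 or 2 at 25 mM, gave 0 called members and 0 called genes each. In these settings 5 to 7 members had an unadjusted p under 0.05, beside 3813 to 4071 genes of the whole table.

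Levels of different genes can be set side by side only per length, and for this the transcript counts were expressed as TPM, a scale that divides by length and has the same total in each sample. At 5 mM the order was Gnat1 (832 ± 266 TPM, SD, n = 3), Gnb1 (671 ± 143), Sag (346 ± 95.3), Pde6g (307 ± 155), Gngt1 (295 ± 99.1), Pde6a (142 ± 10.4), Pde6b (75.8 ± 3.89), Cnga1 (65.2 ± 19.7) and Cngb1 (52.3 ± 18.04). Neighbours did not overlap only between Gnb1 and Sag, between Gngt1 and Pde6a, and between Pde6a and Pde6b. At 25 mM the order was Gnat1 (1231 ± 319 TPM), Gnb1 (1051 ± 255), Gngt1 (911 ± 184), Sag (820 ± 213), Pde6g (394 ± 118), Pde6a (328 ± 60.0), Cnga1 (305 ± 64.1), Pde6b (259 ± 62.2) and Cngb1 (94.2 ± 29.9). Here neighbours stood apart only between Sag and Pde6g and between Pde6b and Cngb1. Cnga1 overlapped with its partner Cngb1 at 5 mM and lay above it at 25 mM, while Gnat1 and Gnb1 headed both orders.

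Ratios between subunits in a single sample do not depend on the normalization factor, but they were not corrected for GC content. Of these ratios 16 were tested by exact two-sided permutation, in which 3 against 3 samples can reach no p under 0.1. Pde6b over Pde6a stood at log2 -1.06, -1.13 and -1.21 at 5 mM and at -0.46, -0.53 and -0.69 at 25 mM. The groups did not overlap, with a difference of 0.58 (exact p = 0.1, adjusted p = 0.229), but it was 0.94 in batch 1 alone and 0.12 in batch 2 alone. Sag over Gnat1 was also higher at 25 mM without overlap, by 0.67 on the log2 scale (exact p = 0.1, adjusted p = 0.229). This difference was 1.12 in batch 1 alone and 0.01 in batch 2 alone. Cngb1 over Cnga1 was lower at 25 mM by a mean difference of -1.45, but 5 mM replicate 1 at -1.61 lay among the 25 mM replicates at -1.87, -2.72 and -1.25 (exact p = 0.2, adjusted p = 0.267). Per length, the ratio of Cngb1 to Cnga1 was 0.79 at 5 mM and 0.30 at 25 mM. The 2 genes differ in GC content, at 54.7% in Cngb1 and 42.6% in Cnga1. With offsets for GC content and length their log2 fold changes were 1.08 and 1.90, beside 0.69 and 2.12 without. Gnb1 over Gnat1 differed by 0.08 (exact p = 0.9, adjusted p = 0.9). Gngt1 over Gnat1 differed by 1.07, with overlap between the groups (exact p = 0.3, adjusted p = 0.343). With the same offsets the log2 fold changes of Gngt1 and Gnat1 were 0.92 and 0.76.

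Cones use a parallel set of subunits, and the same 16 ratios included 8 of a rod gene over its cone counterpart. Of these, 5 were higher at 25 mM without overlap between the groups (exact p = 0.1, adjusted p = 0.229 for each). They were Gngt1 over Gngt2 (difference 2.08 on the log2 scale), Cnga1 over Cnga3 (1.64), Sag over Arr3 (0.87), Gnb1 over Gnb3 (0.65) and Pde6a over Pde6c (0.36). In batch 1 alone the last 2 of these turned to -0.34 for Gnb1 over Gnb3 and -0.09 for Pde6a over Pde6c. The other 3 ratios overlapped, and Gnat1 over Gnat2 had a negative difference of -0.89 (exact p = 0.2, adjusted p = 0.267). Several cone genes were read at few counts, with Cnga3 at 2.89 ± 0.72 CPM and Gnat2 at 6.89 ± 1.77 CPM at 5 mM (SD, n = 3). In the cone list of 10 genes 6 were above 0 and 4 below, with a median of 0.37. The 1 gene called was Opn1mw, the medium-wave cone opsin (log2 fold change 1.75, FDR 0.0420, edgeR). Its mean was only 1.24 CPM at 5 mM and 4.18 CPM at 25 mM. The other cone opsin, Opn1sw, went the other way, from 2.76 to 1.36 CPM (-1.01, FDR 0.0704, edgeR).

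The transcript table showed how the Pde6a counts were made up. Transcript Pde6a-201 holds 22 exons and 4588 bases, and Pde6a-202 holds 6 exons and 2263 bases, of which 2163 are the last bases of Pde6a-201, from position 2426 to its 3′ end. Counts of the long Pde6a-201 were 88.0, 91.7 and 56.3 CPM at 5 mM and 612, 331 and 382 CPM at 25 mM, with no overlap. Counts of the short Pde6a-202 overlapped, at 108, 132 and 146 CPM at 5 mM and 122, 166 and 175 CPM at 25 mM. The share of Pde6a counts held by the long transcript was 37.9% ± 9.01 at 5 mM and 72.8% ± 9.19 at 25 mM (SD, n = 3; exact permutation p = 0.1, the smallest possible, adjusted p = 0.158 over 19 transcripts). The difference of 34.9 percentage points was 52.4 in batch 1 alone and 10.6 in batch 2 alone. The 2 transcripts were told apart by an estimate from reads that mostly fall in shared sequence, and how evenly reads covered the gene was not tested. This shift also moved the gene value. For the members, the deposited gene values tracked transcript sums scaled by mean transcript length (r = 0.99 over 108 member values, a description). Over 12499 genes the match was looser, with r between 0.38 and 0.72. With unscaled transcript sums the log2 fold change of Pde6a was 1.47 (FDR 0.0277, edgeR) rather than 1.06.

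Transcripts that keep an intron held a higher share of several cascade genes at 25 mM, mainly in batch 1. Such transcripts are annotated for 7 of the 9 genes, and their share was higher at 25 mM without overlap in 5: Gnat1, Gnb1, Gngt1, Pde6b and Sag (exact permutation p = 0.1, adjusted p = 0.14 for each). In batch 1 alone all 5 stood apart, and in batch 2 alone none did. The difference was 4.33 percentage points in batch 1 and -1.19 in batch 2 for Gnb1, 3.26 and 0.04 for Gnat1, 2.78 and 1.11 for Gngt1, 19.3 and 5.70 for Pde6b, and 18.2 and 7.41 for Sag. Summed over both batches, the share in Sag was 8.75%, 2.70% and 2.10% at 5 mM and 23.2%, 24.3% and 11.5% at 25 mM. In Pde6b it was 18.2%, 10.5% and 9.25% at 5 mM and 27.2%, 29.0% and 22.1% at 25 mM. Gnat1, with 1.10% ± 0.20 and 2.79% ± 0.63 (SD, n = 3), stayed almost wholly in its coding transcript Gnat1-201. Cnga1 and Cngb1 overlapped between the groups, at 0.24% ± 0.10 against 0.38% ± 0.10 and at 1.74% ± 1.30 against 1.52% ± 0.97. Over all genes the share of retained-intron transcripts was 5.22% to 5.70% in the 5 mM libraries and 7.66% to 8.41% in the 25 mM libraries of batch 1, and 5.96% to 6.62% and 6.30% to 7.43% in those of batch 2. How many genes outside the cascade had shares without overlap was not counted, so whether the rise is particular to the cascade was not tested. With coding transcripts alone, an alternative added after seeing the data, Cnga1 had a log2 fold change of 2.26 (FDR 0.0460, edgeR), Pde6a 1.63 (0.0309) and Pde6b 1.60 (0.0290).

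**Figure D3:**
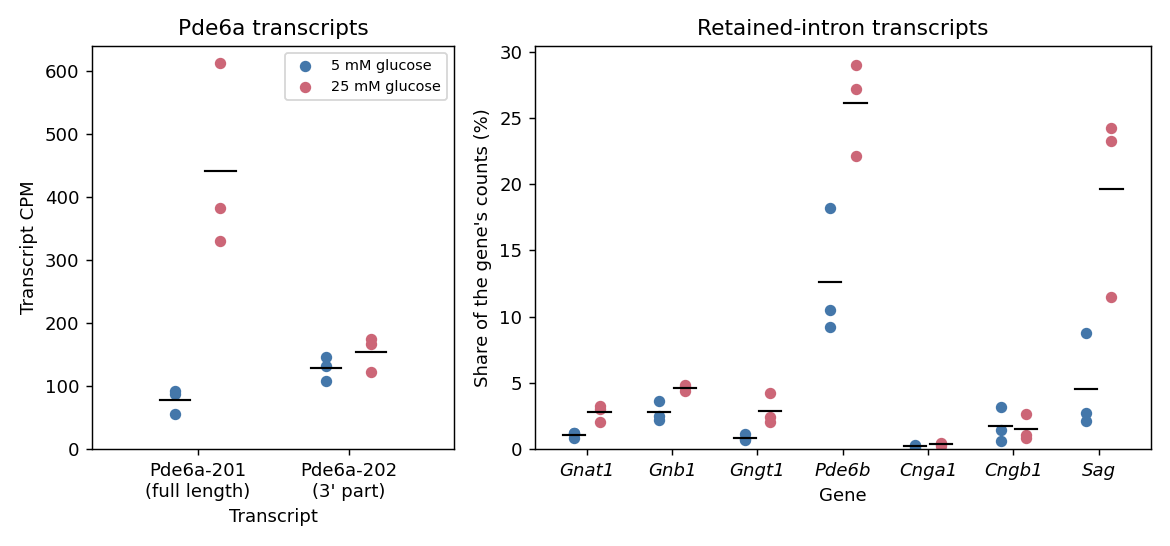
Left, CPM of the 2 Pde6a transcripts; right, the share (%) of each gene's transcript counts in transcripts annotated as retained intron, for the 7 cascade genes that have one. Points are the 3 replicates at 5 mM (blue) and 25 mM glucose (red) and bars are means; Pde6a-201 and the shares of Pde6b and Sag lie higher at 25 mM without overlap when both batches are summed, while Pde6a-202 overlaps.

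GC content differed among members and moved with the fold change. The transcripts ran from 35.9% GC in Gngt1 to 55.5% in Pde6g, and Gnat1, Cngb1 and Pde6g, the 3 members richest in GC, were the 3 whose groups overlapped. Over the 9 genes the correlation of log2 fold change with GC content was -0.68 (Pearson) and -0.67 (Spearman), a description of genes that share the same 12 libraries. Over 20277 genes it was -0.39. Samples of a group also differed in their GC trend. Around each gene's mean, log2 CPM fell with GC content in 5 mM replicate 1 and in 25 mM replicates 1 and 2. It rose in 5 mM replicates 2 and 3 and was nearly flat in 25 mM replicate 3. The part of this trend in the overlaps between groups was not tested. A fit with offsets for GC content and length in each sample kept all 9 members above 0 and called 7 of them at FDR under 0.05, beside 2962 genes. In it Gngt1 dropped from 1.51 to 0.92 (FDR 0.00715, edgeR) and Cnga1 from 2.12 to 1.90 (0.00429). Gnat1 went up to 0.76 (0.0198) and Cngb1 to 1.08 (0.0153), while Gnb1 at 0.47 (0.168) and Pde6g at 0.64 (0.0641) did not pass.

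**Figure D4:**
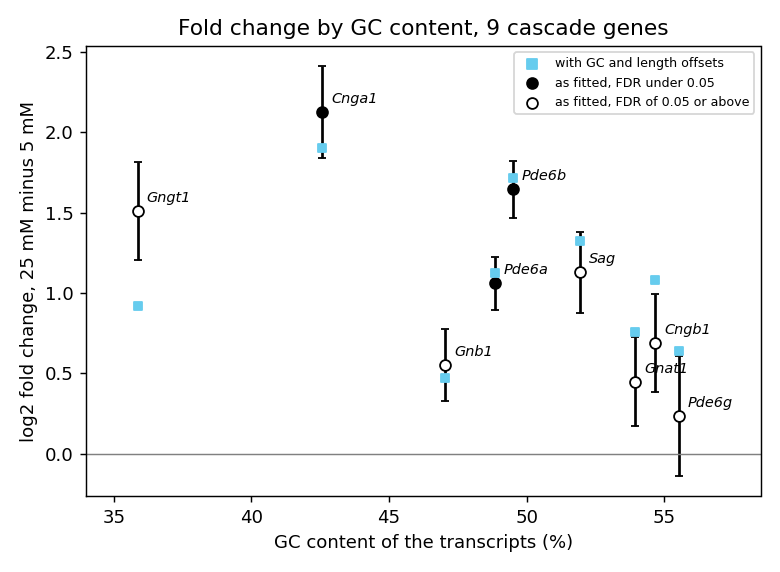
Log2 fold change (25 mM minus 5 mM glucose) against the GC content of the transcripts (%) for the 9 cascade genes. Circles with SE bars are the fit as reported, filled where FDR is under 0.05, and squares the fit with GC and length offsets; the offsets lower Gngt1 from 1.51 to 0.92 and raise Cngb1 from 0.69 to 1.08.

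Other rod genes were higher at 25 mM as well. Of 11 genes that shut off the light response or return calcium and cyclic GMP to the dark state, all 11 were above 0. At FDR under 0.05, 8 passed as higher and 0 as lower, against 1.47% of all genes passing as higher, and the median was 1.90. The largest were Gucy2f, a guanylate cyclase that remakes cyclic GMP (3.13 ± 0.57, SE; FDR 0.0425, edgeR), Grk1, the kinase that phosphorylates the light receptor (2.16 ± 0.23, 0.0217), Rgs9, which speeds GTP hydrolysis on transducin (2.14 ± 0.28, 0.0261), and Gucy2e, the other cyclase (1.97 ± 0.25, 0.0261). All 7 genes of the outer segment structure were above 0 and 6 passed, with a median of 1.52. Rp1, a microtubule protein of the photoreceptor axoneme, went from 250 ± 195 to 2708 ± 1267 CPM (SD, n = 3; log2 fold change 3.44, FDR 0.0410, edgeR). Abca4, a retinoid transporter of the disc rim, had a log2 fold change of 1.96 (FDR 0.0217, edgeR), Prom1 1.94 (0.0269) and Cdhr1 1.52 (0.0324). All 8 rod transcription factors were above 0, with a median of 1.16. Of these 5 passed, among them Neurod1 (2.08, FDR 0.0461, edgeR), Samd7 (1.34, 0.0330), Crx (1.33, 0.0348) and Nrl (1.33, 0.0261). In batch 2 alone, and when replicates 2 or 3 at 5 mM or 1 or 2 at 25 mM were left out, 0 genes of these 3 lists passed, as 0 genes of the table did.

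Genes that serve the cascade from outside it had a median nearer 0. Of 7 genes that fold or carry its proteins 5 were above 0, with a median of 0.16. The 1 that passed was Aipl1, a chaperone needed for the phosphodiesterase (0.92 ± 0.16, SE; FDR 0.0410, edgeR). Of 15 G protein subunits used mainly by other cells 0 passed as higher and 2 as lower, Gnb4 (-2.16 ± 0.40, FDR 0.0438, edgeR) and Gng2 (-1.04 ± 0.20, 0.0454). Their median was -0.54, and 13 of the 15 were below 0. Markers of other cells were measured beside these values. No gene of the bipolar, Müller glia, amacrine, ganglion, vascular, microglia or pigment epithelium lists passed in edgeR, while 27 of the 56 tested had an unadjusted p under 0.05. DESeq2 called 20 of them, 8 vascular, and limma-voom 0. The medians were 0.12 for bipolar cells, -0.27 for Müller glia, 0.04 for amacrine cells and 0.15 for ganglion cells. These medians differed between batches 1 and 2. They were 0.87 and -0.50 for bipolar, -0.36 and 0.003 for Müller glia, 0.33 and -0.57 for amacrine, and 0.38 and -0.52 for ganglion markers. Vascular markers had -1.73, with 9 of 10 below 0 and a summed level of 1238 to 2133 CPM at 5 mM and 623 to 1121 CPM at 25 mM. Microglia markers had -1.14, with 8 of 8 below 0 and sums of 92.7 to 212 CPM and 52.2 to 115 CPM. In batches 1 and 2 the medians were -2.73 and -0.70 for vascular and -1.36 and -0.86 for microglia markers. In batch 1 alone 8 vascular and 5 bipolar markers passed, beside 3279 genes of the whole table. Pigment epithelium markers were low in both groups, with a median of -0.53 and sums of 14.3 to 16.0 and 9.25 to 12.6 CPM, and Rpe65 and Pmel did not pass the filter. The part of these other cells in the cascade values was not tested.

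**Figure D5:**
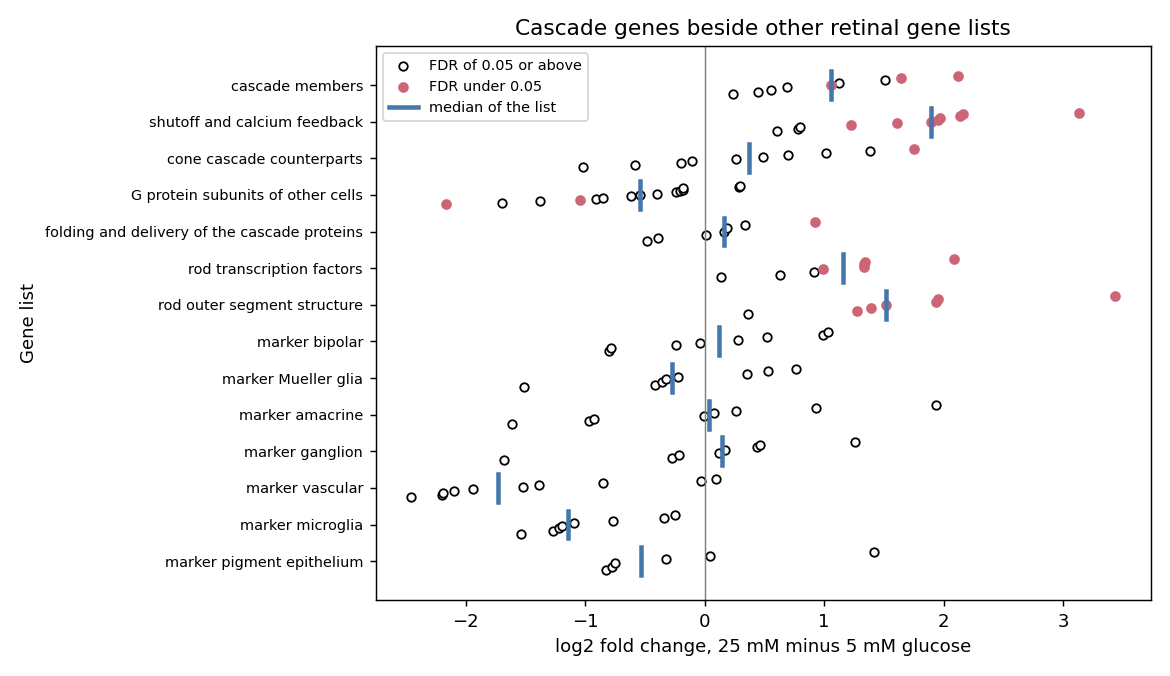
Log2 fold change (25 mM minus 5 mM glucose) of each tested gene in the 9-gene cascade and in 13 other lists. Filled points have FDR under 0.05 and blue bars are list medians; the cascade median of 1.06 lies below those of the shutoff list (1.90) and the outer segment list (1.52), and the vascular (-1.73) and microglia (-1.14) medians are the lowest.

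Among 10194 protein-coding genes with a mean of at least 10 CPM, the profile over the 12 libraries most like the mean of the members' standardized log2 CPM was that of Nrl, the transcription factor that fixes rod identity (Pearson r = 0.982). Ptpn21 (0.973), Rdh12, a retinol dehydrogenase of the photoreceptor inner segment (0.972), Doc2b (0.965) and Slc31a2 (0.964) came next. These correlations describe 12 libraries that come from 6 biological replicates and share a glucose difference.

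Sequence before the start of a gene was available for 6 of the 9 members in the RefSeq table (GRCm38.p6), and 3 windows of 250 bases are given here. Cnga1 and Pde6b are shown because they passed the test with the largest fold changes, and Cngb1 because it is the channel partner that did not. Capitals mark the letters of TAATCC, the core of sites bound by the homeobox factors CRX and OTX2, of TGCTGA, which lies in the sites of NRL, and of GGGCGG and CACCC, which recall sites of SP and KLF factors, each on either strand. Overlapping matches were counted separately, and no motif contains another. The windows lie at chr5:72642753-72643002 on the minus strand for Cnga1, at chr5:108388123-108388372 on the plus strand for Pde6b and at chr8:95306586-95306835 on the minus strand for Cngb1, each written 5′ to 3′ toward the start. Starts are those of the RefSeq entries and can differ from the gene spans given above. The Cnga1 window lies inside the Cnga1 span, and the Gngt1 window overlaps the Gngt1 span.
Cnga1: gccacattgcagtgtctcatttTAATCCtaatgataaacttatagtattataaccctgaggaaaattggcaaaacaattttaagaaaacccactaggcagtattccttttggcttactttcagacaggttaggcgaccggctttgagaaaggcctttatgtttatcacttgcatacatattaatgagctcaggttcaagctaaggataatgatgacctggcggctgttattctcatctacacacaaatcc
Pde6b: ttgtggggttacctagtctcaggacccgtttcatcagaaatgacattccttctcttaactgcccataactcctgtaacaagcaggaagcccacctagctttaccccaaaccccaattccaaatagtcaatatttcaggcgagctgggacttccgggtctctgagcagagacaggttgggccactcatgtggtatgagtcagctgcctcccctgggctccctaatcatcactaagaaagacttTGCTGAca
Cngb1: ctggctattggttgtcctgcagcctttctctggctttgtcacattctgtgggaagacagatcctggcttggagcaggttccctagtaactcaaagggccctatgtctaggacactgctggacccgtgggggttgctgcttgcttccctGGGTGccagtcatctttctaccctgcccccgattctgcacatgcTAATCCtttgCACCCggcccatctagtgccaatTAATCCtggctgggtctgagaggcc
TAATCC was found in 4 of the 6 member windows (Gngt1, Cnga1, Cngb1 and Sag), against 6.25% of 32851 RefSeq windows of the same length. Cngb1 held 2 copies, within 58 bases of its start, and Cnga1 held 1, at 228 to 223 bases before it. Pde6b held none of these letters but 1 TGCTGA, at 8 to 3 bases before its start, and TGCTGA was also found in Sag and in 16.1% of all windows. GGGCGG was found only in Gnb1, with 3 copies, against 32.7% of all windows, and the Gnb1 window was 69.2% GC where the others were 38.4% to 55.6%. CACCC was found in 4 of the 6, against 52.0% of all windows. The copies did not order the members by fold change: Cngb1, with the most copies of TAATCC, had a log2 fold change of 0.69, and Pde6b, with none, had 1.65.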

How the data were processed

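RNA of 12 retinal explant libraries was prepared by the authors with a stranded total RNA kit of pico input (4 ng of RNA, 13 PCR cycles) and sequenced as paired reads of 101 bases. Genes and transcripts each have a table of values, which the authors deposited (expected counts: an estimated count per feature, with no normalization between libraries). The build is given as GRCm38 in the submitters' notes, and the counting tool is not given in the sources used here. For the members the deposited gene values closely follow transcript sums scaled by mean transcript length, and over 12499 genes more loosely (r of 0.38 to 0.72). Such scaling lets a change of isoform move a gene value. Here the 2 technical libraries of each biological replicate were summed and rounded to whole numbers, since the test planned for counts needs them. Names came from GENCODE M21 (90.8% of 53707 genes matched). edgeR 4.0.16 (quasi-likelihood test, filterByExpr, TMM factors, Benjamini-Hochberg over 21061 genes) was fitted in R 4.3.3 to the whole table and only rows of interest are printed. It was tested on simulated data. CPM of genes are edgeR values with TMM factors, CPM of transcripts are scaled to the sample's total transcript counts without such factors, and fold changes are log2. Shares and ratios were compared by exact permutation. DESeq2 1.42.0, limma 3.58.1, other normalizations and filters, single batches and left-out replicates were alternatives. Members, lists and motifs were chosen with earlier results of these data known. Named genes were all members, the called genes of each list with the largest fold changes (at most 4 a list) and the 5 most alike profiles. PCR copies without molecular identifiers are not independent molecules.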

Additional observations from a re-analysis of the deposited data

Results flagged for a closer look

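The share of Sag counts in retained-intron transcripts was 13.7% in the second technical library of 5 mM replicate 1, far from the 5 other libraries at 5 mM by Dixon's test at the 95% level; the first library of the same replicate had 3.95%, and 25 mM libraries ran from 7.28% to 29.3%. In all 32 groups of 6 libraries were tested in this way, where chance alone gives about 1.6 such values.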

How the results depend on the processing

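The counts depended on the processing far more than the directions did. Over 24 alternatives each of the 9 members stayed above 0 except Pde6g, which reached -0.10 without 5 mM replicate 1 (-0.10 to 0.53 over the 6 replicates left out in turn). Cnga1 ran from 1.50 to 2.44, Pde6b from 1.22 to 1.85 and Pde6a from 0.72 to 1.63, and they passed FDR under 0.05 in 18, 18 and 17 of the 24. Genes and members called were 417 and 3 in the main fit. Among the alternatives, DESeq2 gave 3489 and 5, no filter 1979 and 5, and 12 libraries as samples with a batch term 2918 and 5. Leaving out the second technical library of 5 mM replicate 1 gave 1731 and 5, and GC and length offsets 2962 and 7. Batch 1 alone gave 3279 and 2, and batch 2 alone 0 and 0. Coding transcripts gave 54 and 3. With 1 technical library each of 25 mM replicates 1 and 2 left out, the counts were 0 and 0. At the stricter threshold the main fit gave 0 and 0. The first 5 of these alternatives gave 1387 and 5, 275 and 4, 109 and 2, 56 and 2, and 126 and 3. Batch 1 alone gave 367 and 0 there. Leaving out 1 replicate gave 0 to 5845 genes and 0 to 5 members, or 0 to 108 and 0 to 2 at the stricter threshold.

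No pairing by replicate number was visible. Deviations of same-numbered samples from their group mean correlated by -0.01, -0.45 and 0.29. The highest value was 0.51, for 5 mM replicate 1 with 25 mM replicate 2. Deviations within a group of 3 are not independent, so these values cannot show whether the samples were paired. The replicate block called 990 genes; with GC and length offsets as well it called 3309 genes and 7 members, or 554 and 3 at the stricter threshold.

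In batch 1 alone the lists held 3 calls for cone genes, 5 for other G proteins, 5 for bipolar, 1 for Müller glia, 3 for amacrine, 2 for ganglion, 8 for vascular, 2 for microglia and 1 for pigment epithelium markers, and in batch 2 alone 0 for each of the shutoff, cone, other G protein, folding, transcription factor and outer segment lists. Library totals gave 1 for other G proteins and 1 for bipolar markers. Leaving out 1 replicate gave 0 to 9 for shutoff, 0 to 7 for transcription factors, 0 to 7 for other G proteins, 0 to 6 each for outer segment, cone and vascular, 0 to 5 each for amacrine and microglia, 0 to 4 for bipolar, 0 to 3 each for Müller glia and ganglion and 0 to 2 for folding genes.

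Ratios that turned were, in batch 1, Gnb1 over Gnb3 (-0.34), Pde6a over Pde6c (-0.0861) and Pde6g over Pde6h (-0.42), and in batch 2 Gnb1 over Gnat1 (-0.11), Gnat1 over Gnat2 (0.41) and Cngb1 over Cngb3 (0.23). Leaving out 1 replicate gave -0.00056 to 0.21 for Gnb1 over Gnat1 and -1.29 to 0.0774 for Cngb1 over Cngb3. The differences in share that turned were Gnb1-208 in batch 1 (0.34) and Gnb1-202 (2.27), Pde6g-202 (4.92) and Cngb1-202 (2.90) in batch 2, in percentage points. The cause of these changes was not tested.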

Other observations

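The members did not all vary together. Over all pairs of members the Pearson correlation of log2 CPM across the 12 libraries ran from 0.07 (Gngt1 with Pde6g) to 0.97 (Gngt1 with Cnga1). Pde6b also went closely with Cnga1 (0.96) and with Pde6a (0.94), whereas Pde6g had 0.20 with Cnga1. Gnat1 and Gngt1, whose products act in 1 complex, had 0.36. These values describe libraries that share glucose, batch and base composition, and come with no test.

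Transcripts annotated for nonsense-mediated decay, which the cell destroys because their reading frame ends early, held a higher share of Cngb1 at 25 mM, without overlap between the groups. Cngb1-205 held 4.01% ± 1.76 of Cngb1 counts at 5 mM and 11.5% ± 1.55 at 25 mM, and Cngb1-207 3.85% ± 0.90 and 8.32% ± 1.83 (SD, n = 3; exact permutation p = 0.1, adjusted p = 0.158 over 19 transcripts for each). Cnga1 was almost wholly Cnga1-201 at 25 mM, where Cnga1-205, whose sequence joins Cnga1-201 at position 252, held 1.13% ± 0.39 of the counts against 13.5% ± 10.7 at 5 mM (exact permutation p = 0.1, adjusted p = 0.158). The differences were larger in batch 1 than in batch 2, at 10.3 and 4.53 percentage points for Cngb1-205, 7.91 and 0.93 for Cngb1-207 and -18.2 and -5.37 for Cnga1-205. At 5 mM the share of Cnga1-205 was 1.69% in replicate 1 and 16.4% and 22.5% in the other replicates.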
